A study of Mus musculus with 2 samples.

Results

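The epithelial-mesenchymal transition was read in 4T1 cells from 10 genes: the epithelial adhesion genes Cdh1 and Epcam, the mesenchymal markers Cdh2 and Vim, and the transcription factors Snai1, Snai2, Twist1, Twist2, Zeb1 and Zeb2. The genes were taken by name, with earlier results of these data known, and all 10 were found among the 21911 genes of the expression table. 4T1 is a mouse mammary carcinoma line, and both of its libraries came from cultured cells without any host tissue. A control culture received PBS, and a treated culture received potassium oxalate for 48 h. The labels give the oxalate dose once as 20 mM and once as 20 µM, while the methods of the study give the micromolar dose. Each condition had 1 library, so that no spread between replicates can be given and no test of the conditions was made. At an estimated 56700000 reads with PBS and 36500000 with oxalate, 13475 and 13050 genes were above 0.

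During the transition, epithelial cells lose the cell-cell contacts built by E-cadherin and take on the migratory form of mesenchymal cells, with vimentin filaments and N-cadherin. Transcription factors of the Snail, Twist and Zeb families drive this switch, in part by binding E-boxes in the promoters of epithelial genes and shutting them down. Mammary carcinomas are known for intermediate states, in which epithelial and mesenchymal genes are expressed side by side, and these states have been linked to metastasis.

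The table held both sides of the switch. Cdh1 and Epcam were the highest of the 10 genes, Vim followed at a level of the same order, Snai1 was the leading factor, and Cdh2 and Snai2 were at or near 0. Expression was measured in FPKM, that is fragments scaled to the length of the transcript and to the fragments mapped in the library. Division by length allows levels of different genes to be compared, within the limits of the length assumed for each gene. With oxalate the levels were close to those with PBS: 8 genes passed a minimum of 1 FPKM for the average of both libraries, 4 of them were higher and 4 lower with oxalate, and their log2 ratios ran from -0.14 to 0.086. Ratios were formed after adding 1 to each FPKM value, as log2((oxalate + 1)/(PBS + 1)), a scale that shrinks the differences of weakly expressed genes. None of the 8 reached 2-fold in either direction, against 0.653% of all 10267 genes that passed the same minimum (0.292% higher and 0.36% lower with oxalate). None reached 1.5-fold, against 1.99% of all genes (0.935% higher and 1.05% lower). The median log2 ratio was 0.0047 over the 8 genes and 0.0031 over all genes compared.

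**Figure D1:**
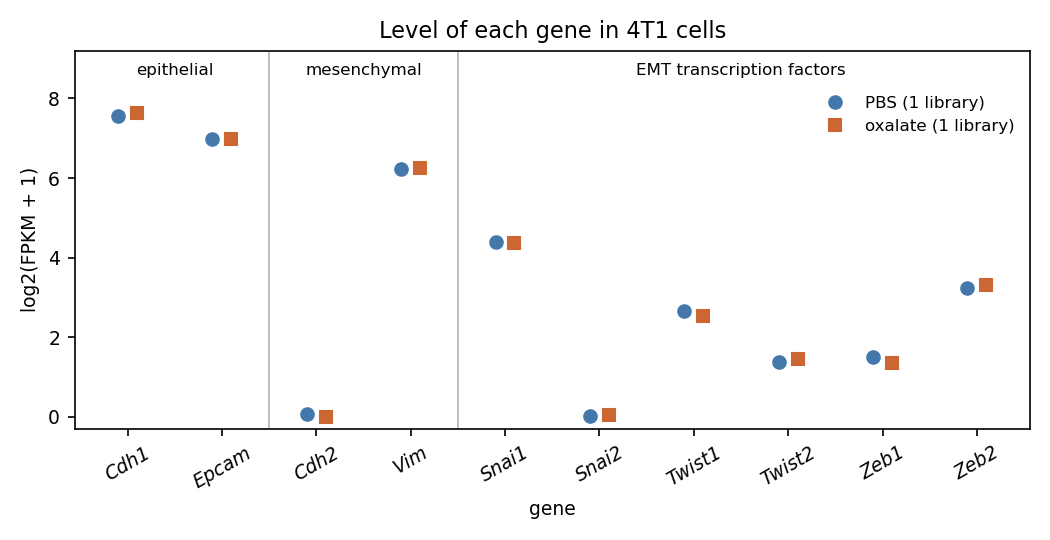
Level of each of the 10 genes as log2(FPKM + 1) on the vertical axis, with circles for the PBS library and squares for the oxalate library (1 library each). Cdh1, Epcam and Vim are the highest, Snai1 is the highest of the factors, and Cdh2 and Snai2 lie at the bottom in both libraries.

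Cdh1 encodes E-cadherin, the calcium-dependent adhesion protein of adherens junctions (ENSMUSG00000000303, chromosome 8, 106603351 to 106670246, GENCODE M21 on GRCm38). It measured 187.7 FPKM in the PBS library and 199.34 FPKM in the oxalate library. This placed it at percentile 96.8 and 97.0 of the genes above 0 in the respective library. The log2 ratio was 0.086. From the steps between low FPKM values, the reads behind these levels were estimated at 40610 with PBS and 27781 with oxalate, and the 95% interval of their log2 ratio, exact by the Clopper-Pearson method, ran from 0.065 to 0.11. Cdh1 was the only 1 of the 8 genes whose interval left out 0, whereas 48.8% of all genes compared did so at this depth. Such an interval covers counting error only and compares the 2 libraries, not the conditions. It belongs to the ratio before 1 is added to the FPKM values. For weakly expressed genes it is therefore not centred on the log2 ratio given. Of all genes compared, 49.6% had a smaller absolute log2 ratio than Cdh1, so its difference was of ordinary size among the genes of these libraries.

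Epcam encodes an epithelial surface glycoprotein widely used to mark carcinoma cells (ENSMUSG00000045394, chromosome 17, 87635979 to 87651129). Its level was 125.71 FPKM in the PBS library and 125.33 FPKM in the oxalate library, with a log2 ratio of -0.0043 and a counting interval of the log2 ratio from -0.051 to 0.042. Cdh1 stood 1.49 times above Epcam in the PBS library and 1.59 times in the oxalate library.

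Vim encodes vimentin, the intermediate filament protein of mesenchymal cells (ENSMUSG00000026728, chromosome 2, 13573927 to 13582826). It measured 74.58 FPKM in the PBS library and 75.3 FPKM in the oxalate library, within the top of the table at percentiles 89.8 and 89.6. The log2 ratio was 0.014, with a counting interval of the log2 ratio from -0.043 to 0.070. The level of Cdh1 was 2.52 times that of Vim with PBS and 2.65 times with oxalate. Cdh2 encodes N-cadherin (ENSMUSG00000024304, chromosome 18, 16588877 to 16809246), the cadherin that takes the place of E-cadherin in the classical transition. It was listed at 0.04 FPKM with PBS, about 10 estimated reads, and at 0 with oxalate. No ratio is given for a gene listed at 0. On the mesenchymal side the cells therefore had abundant vimentin mRNA and almost no N-cadherin mRNA in both libraries. RNA was pooled from whole cultures, so a mixture of epithelial and mesenchymal cells and single cells with both programs cannot be told apart, nor can fewer cells of a type and less RNA per cell.

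Snai1 encodes the zinc finger repressor Snail (ENSMUSG00000042821, chromosome 2, 167538195 to 167542814), a direct repressor of Cdh1. It measured 19.99 FPKM in the PBS library and 19.69 FPKM in the oxalate library, behind an estimated 1837 and 1166 reads. The log2 ratio was -0.021, with a counting interval of the log2 ratio from -0.13 to 0.085. Snai1 was thus expressed beside Cdh1, whose level was 9.39 times that of Snai1 with PBS and 10.1 times with oxalate. Its paralog Snai2, which encodes Slug (ENSMUSG00000022676, chromosome 16, 14705852 to 14709385), measured 0.02 FPKM in the PBS library and 0.03 FPKM in the oxalate library. About 2 estimated reads lay behind each of these values, under the floor of 3 reads below which no ratio is given.

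Promoter sequences were available for 6 of the 10 genes, but not for Cdh1, Cdh2, Snai2 and Zeb1. They were windows of 300 bases from 250 bases before to 50 bases after the RefSeq start. Those of Epcam, Snai1 and Vim are shown because these genes were high while Snai1, whose product recognizes E-boxes of the form CAGGTG, which reads CACCTG on the other strand, was the leading factor. The windows are on GRCm38.p6, all on the plus strand, at chr17:87635729-87636028 for Epcam, chr2:167537945-167538244 for Snai1 and chr2:13574061-13574360 for Vim, and capitals mark each match to either form of the E-box.
Epcam: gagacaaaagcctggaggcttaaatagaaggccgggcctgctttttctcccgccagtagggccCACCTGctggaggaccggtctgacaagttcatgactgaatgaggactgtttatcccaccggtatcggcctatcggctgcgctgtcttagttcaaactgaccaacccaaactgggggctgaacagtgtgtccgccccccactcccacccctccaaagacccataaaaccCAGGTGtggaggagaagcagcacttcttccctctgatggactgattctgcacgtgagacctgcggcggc
Snai1: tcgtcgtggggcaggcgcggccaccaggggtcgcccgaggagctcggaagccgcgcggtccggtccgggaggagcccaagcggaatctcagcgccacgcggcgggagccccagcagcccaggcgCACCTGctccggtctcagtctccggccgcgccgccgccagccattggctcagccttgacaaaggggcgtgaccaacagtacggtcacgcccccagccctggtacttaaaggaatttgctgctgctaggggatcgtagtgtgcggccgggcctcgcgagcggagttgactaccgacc
Vim: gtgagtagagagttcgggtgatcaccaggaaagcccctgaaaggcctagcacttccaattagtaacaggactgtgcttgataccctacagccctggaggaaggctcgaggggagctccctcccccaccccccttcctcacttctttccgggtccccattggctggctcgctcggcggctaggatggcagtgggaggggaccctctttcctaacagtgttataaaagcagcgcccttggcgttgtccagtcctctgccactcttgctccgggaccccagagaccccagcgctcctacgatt
The Epcam window held 2 matches, which began 187 and 19 bases before the start. The Snai1 window held 1 match, 126 bases before its start, and the Vim window none. At least 1 match was found in 20.2% of the 32851 windows of all genes, and 2 or more in 2.88%. The windows of Twist1 and Twist2 and the 4 windows of Zeb2 held none. A match gives letters only, and binding was not measured here.

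The Twist genes encode basic helix-loop-helix factors that also bind E-boxes. Twist1 (ENSMUSG00000035799, chromosome 12, 33957671 to 33959829) measured 5.35 FPKM in the PBS library and 4.77 FPKM in the oxalate library. Its log2 ratio of -0.14 was the lowest of the 8 genes, and 494 and 284 estimated reads gave a counting interval of the log2 ratio from -0.38 to 0.049. Twist2 (ENSMUSG00000007805, chromosome 1, 91801461 to 91848028) measured 1.61 FPKM in the PBS library and 1.75 FPKM in the oxalate library, a log2 ratio of 0.075. With 176 and 123 estimated reads its counting interval ran from -0.23 to 0.46. For neither Twist gene was a difference detectable at this depth.

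The Zeb genes encode large zinc finger and homeodomain repressors of epithelial genes. Zeb2 (ENSMUSG00000026872, chromosome 2, 44983632 to 45117395) measured 8.49 FPKM in the PBS library and 9.01 FPKM in the oxalate library. Its log2 ratio was 0.077 and its counting interval ran from -0.044 to 0.21. Zeb1 (ENSMUSG00000024238, chromosome 18, 5591860 to 5775467) was lower, with 1.82 FPKM in the PBS library and 1.57 FPKM in the oxalate library. Its log2 ratio was -0.13, with an interval from -0.52 to 0.089 on 257 and 143 estimated reads. Zeb2 exceeded Zeb1 4.66 times with PBS and 5.74 times with oxalate. The FPKM levels and the estimated reads of both genes depend on the transcript length assumed. The length behind the deposited FPKM is not given, so the size of the Zeb2 to Zeb1 ratio is uncertain. Zeb2 has 17 annotated coding transcripts from 240 to 9124 bases long, Zeb1 has 3 from 774 to 5801, and the estimated reads used their mean length. Cdh2, Twist2, Zeb1 and Zeb2 each overlap a gene on the opposite strand, Zeb2os in the case of Zeb2, that the table does not list. The protocol does not state a stranded library, and reads of the opposite strands cannot then be told apart.

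**Figure D2:**
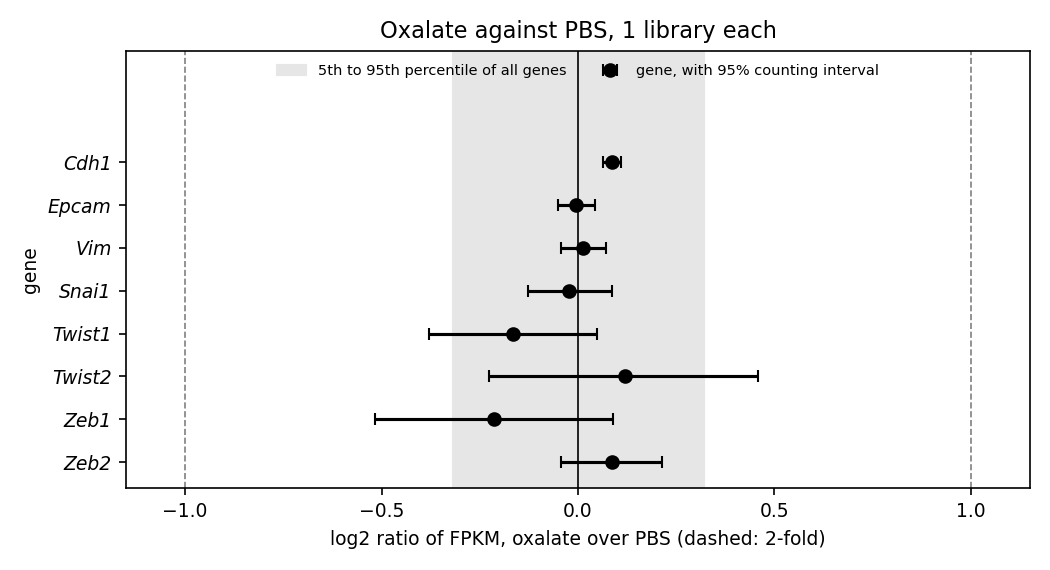
Log2 ratio of FPKM, oxalate over PBS without a pseudocount, for the 8 genes above the minimum of 1 FPKM (points), with exact 95% counting intervals of the estimated reads (bars) and the 5th to 95th percentile of all genes on the same scale (grey, -0.32 to 0.32). All 8 points lie inside the grey band and far from the dashed 2-fold lines.

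In the order of their FPKM, the genes ran Cdh1, Epcam, Vim, Snai1, Zeb2, Twist1, Zeb1, Twist2, Cdh2, Snai2 with PBS. The order with oxalate differed in 2 neighbouring pairs, Zeb1 with Twist2 and Cdh2 with Snai2. The Zeb1 level was 1.13 times that of Twist2 with PBS and 0.897 times with oxalate, so their order was not stable between the libraries. All steps above Zeb1 were wider and kept their direction, the narrowest being that between Cdh1 and Epcam with PBS, and the next that between Zeb2 and Twist1 (1.59 times with PBS and 1.89 times with oxalate).

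Zeb1 and Zeb2 are known targets of the miR-200 family, short RNAs that hold epithelial cells in their state by repressing both factors. The mature RNAs were not measured in these polyadenylated libraries. Their RefSeq sequences (GRCm38.p6) are shown 5′ to 3′ because the matches of their seeds set Zeb1 and Zeb2 apart from the other 8 genes, and capitals mark the seed, bases 2 to 8. The first 3 share one seed, the next 2 another, and miR-205 has its own.
mmu-miR-200b-3p: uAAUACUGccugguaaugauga
mmu-miR-200c-3p: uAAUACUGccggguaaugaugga
mmu-miR-429-3p: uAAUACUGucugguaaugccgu
mmu-miR-200a-3p: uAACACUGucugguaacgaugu
mmu-miR-141-3p: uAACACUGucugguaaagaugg
mmu-miR-205-5p: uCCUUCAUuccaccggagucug
The reverse complements CAGTATT and CAGTGTT of the miR-200 seeds were counted on the mRNA strand in the 3′ UTR of the longest coding transcript of each gene (GENCODE M21). Zeb1 held 9 matches in 2401 bases and Zeb2 held 9 in 4941 bases, 5 of the first and 4 of the second form in each. This corresponds to 3.75 and 1.82 matches per kb, against 0.259 per kb over the 3′ UTRs of all 21039 coding genes scanned. Only 3 genes of those scanned held 9 or more, and 25.5% held at least 1. Snai2 held 2 matches, Snai1 held 1, and Cdh1, Epcam, Cdh2, Vim, Twist1 and Twist2 held none. The match to the miR-205 seed, ATGAAGG, was found once in Zeb1 and in no other gene of the set. The Zeb2 matches are given as examples, one of each form, with 10 bases on either side and the match in capitals, at chr2:44988099-44988125 and chr2:44988348-44988374 on the minus strand of GRCm38.
Zeb2 at position 458 of the 3′ UTR: tacagtgcatCAGTATTacgattcctc
Zeb2 at position 209 of the 3′ UTR: aaattttgtaCAGTGTTaaggcctaaa

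**Figure D3:**
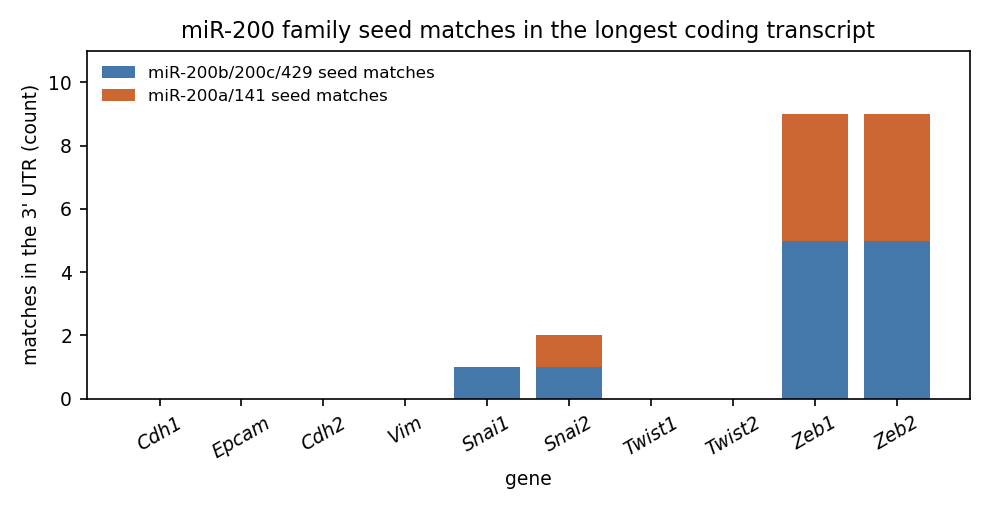
Number of matches to the seed shared by miR-200b and miR-200c (lower bar) and to that of miR-200a (upper bar) in the 3′ UTR of the longest coding transcript of each gene. Zeb1 and Zeb2 reach 9 each, Snai2 reaches 2, Snai1 reaches 1 and the other 6 genes are at 0.

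The wider programs around these genes were then examined through lists of general knowledge, chosen with earlier results of these data known. Their counts describe the lists as chosen, and some genes, such as Jup and Cd44, stand in more than 1 list. Of all 21911 genes listed, 10267 passed the minimum of 1 FPKM. Among 13 partners of the cadherins, 8 passed the minimum of 1 FPKM, of which 7 were higher and 1 lower with oxalate, with a median log2 ratio of 0.11. Of all genes compared 50.6% were higher, with a median of 0.0031. Without the minimum the median of the 13 partners was 0.055. Ctnnb1, which encodes the β-catenin that binds E-cadherin, measured 412.24 FPKM in the PBS and 435.08 FPKM in the oxalate library. Ctnna1, the α-catenin that links the complex to actin, was at 120.67 and 125.36 FPKM, and Jup, the plakoglobin of junctions, at 82.83 and 91.39 FPKM. Among these 8, the widest difference was that of Nectin1, an adhesion receptor of adherens junctions, at 10.5 FPKM in the control and 14.4 FPKM after oxalate (log2 ratio 0.42), and the only lower one was Nectin2 (36.45 and 35.28 FPKM, log2 ratio -0.046). All 8 stayed under 1.5-fold, which 1.99% of all genes compared reached.

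Nearly all genes of the epithelial list were expressed. Of 38 epithelial genes (keratins, claudins, desmosomal and polarity genes), 37 passed the minimum of 1 FPKM, against 10267 of all 21911 genes. The exception, Cdh3, was at 0.97 and 0.83 FPKM. With oxalate 25 were higher and 12 lower, with a median log2 ratio of 0.049 and a range from -0.22 to 0.22, while over all genes compared 50.6% were higher. Krt7, Krt8 and Krt18, the keratins of simple epithelia, led with 703.31, 401.94 and 394.82 FPKM in the PBS library and 699.04, 429.31 and 405.07 FPKM in the oxalate library. Cldn7, a tight junction claudin, had the lowest log2 ratio of the list (-0.22), with 96.81 FPKM in the control and 82.71 FPKM after oxalate, and Ap1m2, a sorting adaptor of epithelial cells, had the highest (0.22), with 9.83 and 11.63 FPKM.

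Regulators that oppose the transition were present as well. Of 15 such genes 11 passed a mean FPKM of 1, with 8 higher and 3 lower and a median log2 ratio of 0.089, while 50.6% of all genes compared were higher. Esrp1, the splicing factor that sets epithelial isoforms, measured 46.06 FPKM in the PBS and 49.05 FPKM in the oxalate library, above the level of Snai1. Klf5 was at 97.93 and 103.18 FPKM and Gata3, a luminal mammary factor, at 47.75 and 46.36 FPKM. Elf3, an epithelial ETS factor, had the widest difference upward, from 10.2 to 13.95 FPKM (log2 ratio 0.42, counting interval 0.33 to 0.58). Ovol2, a repressor of Zeb1 in epithelia, had the widest downward, from 4.26 to 3.27 FPKM (log2 ratio -0.30, counting interval -0.65 to -0.13). These 2 regulators of the epithelial state thus lay on opposite sides, both short of 1.5-fold.

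Of 35 mesenchymal genes 16 passed the minimum of 1 FPKM, near the share over all genes (10267 of 21911). Another 6 were listed at 0 in both libraries. Among the 16, 7 were higher and 9 lower with oxalate, with a median log2 ratio of -0.0024. The highest were Lgals1, which encodes galectin-1, at 3944.15 and 3933.91 FPKM, S100a4, a calcium-binding protein of motile cells, at 534.92 and 476.06 FPKM, and Fn1, the matrix protein fibronectin, at 423.13 and 481.72 FPKM. Among the 16, Fn1 also had the highest log2 ratio (0.19), and Tagln, an actin-binding protein of smooth muscle, the lowest (2.12 and 1.7 FPKM, log2 ratio -0.21). Below the minimum of 1 FPKM lay 19 genes of the list. The largest falls, picked after the values were seen, were those of Bgn, Mmp2, Col1a2 and Col6a1 (log2 ratios -0.65, -0.51, -0.50 and -0.38). They encode matrix proteins and a matrix protease. Fbn1, Tgfbi, Lox, Dcn and Pdgfrb were higher (0.055, 0.060, 0.038, 0.022 and 0.014), and the others fell by less or were listed at 0. Of all genes with a mean FPKM from 0.1 to 1, 10.7% were 2-fold lower and 10% were 2-fold higher at a pseudocount of 0.001. On the log2(FPKM + 1) scale the mean of the epithelial list lay above that of the mesenchymal list by 2.58 with PBS and 2.69 with oxalate, and Cdh1 lay above Vim by 1.32 and 1.39. The size of the first gap depended on how the many genes near 0 were treated, while its direction was the same under the other pseudocounts and with medians.

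**Figure D4:**
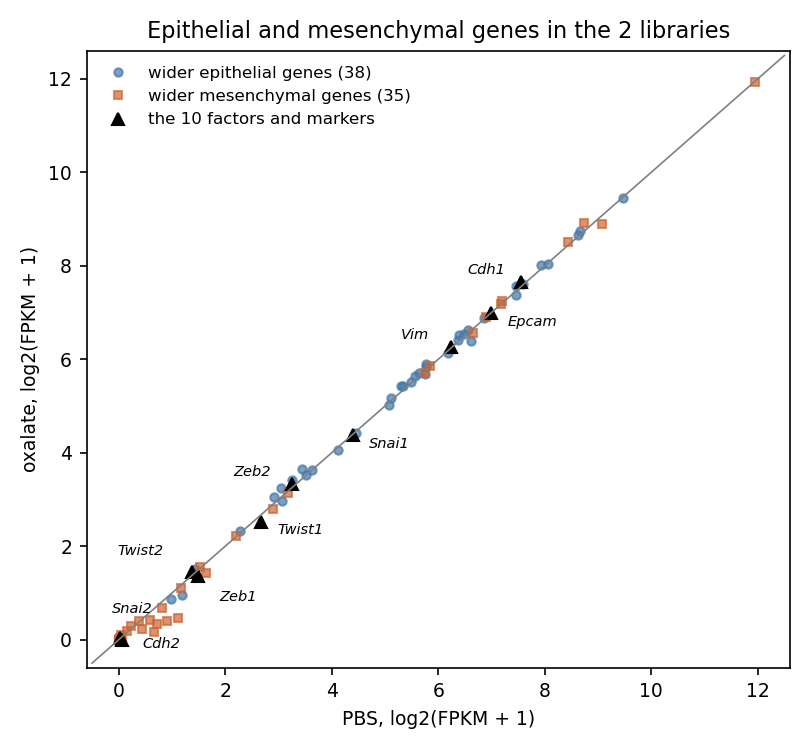
Level of 38 epithelial genes (circles), 35 mesenchymal genes (squares) and the 10 factors and markers (triangles), as log2(FPKM + 1), with PBS on the horizontal and oxalate on the vertical axis and the line of equal levels. Most epithelial genes lie well above 1, whereas the mesenchymal genes split into high ones such as Lgals1 and a group near 0, part of which lies below the line.

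Other factors linked to the transition showed no common direction, with 7 of 14 higher, 7 lower and a median log2 ratio of 0.0011. Fosl1, an AP-1 subunit of invasive cells, measured 183.48 FPKM in the PBS and 169.78 FPKM in the oxalate library, Tcf3, which encodes the E-box factor E2A, at 81.33 and 83.54 FPKM, and Id1, an inhibitor of such factors, at 82.25 and 80.68 FPKM. The remaining Snail gene, Snai3, was at 2.24 and 3.1 FPKM, the highest log2 ratio of this list (0.34, counting interval 0.17 to 0.76), and Foxc1 had the lowest (9.92 and 8.57 FPKM, -0.19). Prrx1 measured 0.02 FPKM in the control and 0 after oxalate, and Gsc and Prrx2 were listed at 0 in both libraries. All 22 cofactors and turnover genes of the Snail and Zeb proteins passed the minimum of 1 FPKM, 11 higher and 11 lower, with a median log2 ratio of -0.0078. Ctbp1, the corepressor of Zeb1, was both among the highest and the one with the largest log2 ratio (107.67 and 125.19 FPKM, 0.22). Kdm1a, the histone demethylase recruited by Snail, had the lowest (45.0 and 37.63 FPKM, -0.25). Gsk3a and Csnk2a1, which encode kinases, were at 116.79 and 80.03 FPKM with PBS and 110.59 and 83.34 FPKM with oxalate.

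Genes around the splice switch of the transition were all expressed, with 7 of 10 higher with oxalate and a median log2 ratio of 0.059. The share of higher genes was 50.6% over all genes compared. Rbfox2, a splicing factor active in mesenchymal cells, had the widest difference, from 7.63 to 10.81 FPKM (log2 ratio 0.45, counting interval 0.37 to 0.63), and Enah, an actin regulator with an epithelial-specific exon, the lowest (27.06 and 24.78 FPKM, -0.12). Hnrnpm, Cd44 and Srsf1 were the highest of this list, at 296.55, 144.95 and 51.92 FPKM with PBS and 290.51, 150.56 and 49.45 FPKM with oxalate. The table gives 1 value per gene, so that the isoforms on which this switch acts were not analysed here. Over all 7 lists no gene above the minimum of 1 FPKM reached 1.5-fold, against 1.99% of all genes compared.

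**Figure D5:**
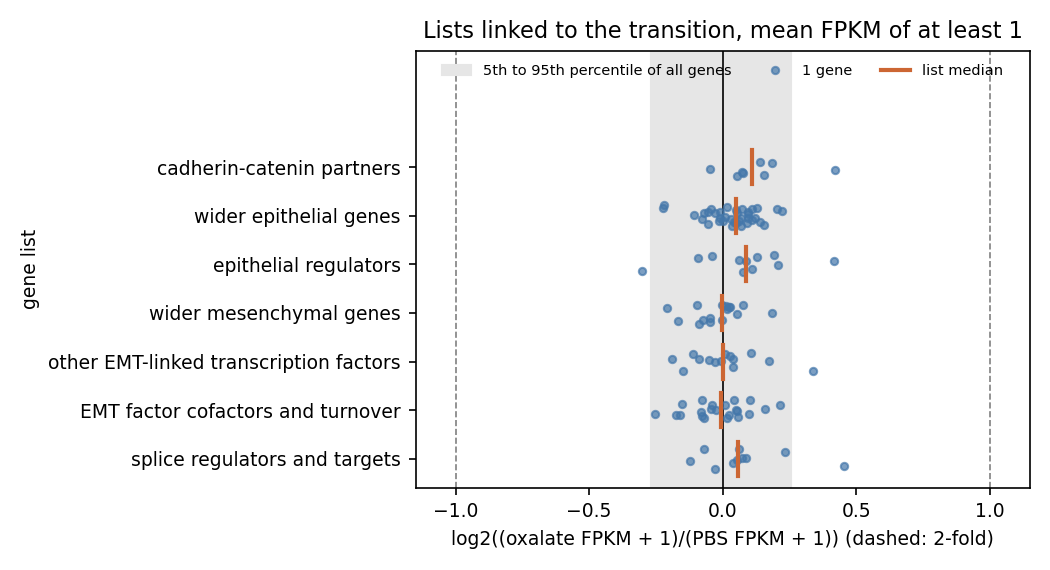
Log2((oxalate FPKM + 1)/(PBS FPKM + 1)) of the genes of 7 lists above the minimum of 1 FPKM (points), with the median of each list (vertical bars) and the 5th to 95th percentile of all genes (grey, -0.27 to 0.26). No gene reaches the dashed 2-fold lines, against 0.653% of all genes compared, and the list medians run from -0.0078 to 0.11.

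The labelled cell type was checked against markers. Of 10 luminal markers, Cdh1 and Epcam among them, 8 passed a mean FPKM of 1. The keratins Krt8, Krt18 and Krt19 were high in both libraries, and Gata3 was at 47.75 and 46.36 FPKM. Foxa1 was at 3.37 and 4.05 FPKM, Esr1 at 2.79 and 2.98 FPKM, and Elf5 and Pgr were listed at 0. Of 8 myoepithelial markers only Krt14 passed a mean FPKM of 1 (74.61 and 71.09 FPKM), with Acta2 and Trp63 at or under 0.35 FPKM. Of 9 fibroblast markers 2 passed it, Col1a1 (143.48 and 144.61 FPKM) and Pdgfra (1.88 and 1.93 FPKM), and Lum, Fap and Thy1 were listed at 0. The summed level of the fibroblast list, 147.32 FPKM with PBS and 147.83 with oxalate, was almost that of Col1a1 alone. Below the minimum, Col1a2 was at 0.88 and 0.33 FPKM (counting interval of the log2 ratio -1.99 to -0.91) and Col3a1 at 0.75 and 0.6 FPKM (-0.86 to 0.17). Dcn was at 0.31 and 0.33 FPKM and Pdgfrb at 0.02 and 0.03 FPKM. Of 8 leukocyte markers 5, Ptprc among them, were listed at 0 in both libraries, while Cd68 (7.79 and 7.11 FPKM) and Csf1r (4.93 and 5.18 FPKM) were above 1. None of 5 endothelial markers reached 0.1 FPKM.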

How the data were processed

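RNA of 4T1 cells treated with PBS or potassium oxalate was sequenced in 1 library per condition after oligo(dT) enrichment and random priming. The authors deposited FPKM values per Ensembl gene, rounded to 2 decimals. Their processing notes name Bowtie2 2.2.8 and TopHat2 2.1.1. The quantification tool, genome build and annotation are not given in the sources used here. Symbols, positions and transcript lengths were taken from GENCODE M21 (GRCm38), which matched 21848 of 21911 identifiers, and may differ from the annotation of the authors.

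Ratios were log2((oxalate + 1)/(PBS + 1)) and genes were compared where the average of both libraries reached 1 FPKM. Values of genes of up to 0.7 kb with 1 transcript moved in steps, which put 1 read in a transcript of 1 kb at 0.0176 FPKM with PBS (84 genes) and 0.0274 with oxalate (76 genes), which puts the oxalate library below the PBS library in depth. Estimated reads used the mean length of coding transcripts and gave exact 95% intervals of the ratio without a pseudocount. The step estimate had been tested on data simulated with the same transcript lengths. That test did not cover lengths that differ in the annotation of the authors. The 10 genes and all lists were chosen with earlier results of these data known. Named from each list were the 3 highest genes, the widest difference each way and any gene past 1.5-fold. Some genes under the minimum were named outside this rule. Promoter and miRNA sequences were those of RefSeq. The alternatives were other pseudocounts, filters, thresholds, a rescaling and a ratio of reads. Calculations ran in Python 3.11.15 with scipy 1.17.1, pandas 2.3.3 and numpy 2.4.6, and plots were drawn with matplotlib 3.10.9.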

Additional observations from a re-analysis of the deposited data

How the results depend on the processing

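No paired analysis was possible because PBS and oxalate were each sequenced once, and for the same reason no replicate could be left out. The 32 alternative ratios of the 8 genes stayed within the counting intervals, with no change of sign. The ratios of reads among them were made from the same FPKM values. They could differ from the FPKM ratio without a pseudocount only by rounding, and are no independent check. The counts of genes past the threshold stayed at 0 when the pseudocount, filter, threshold or scaling was changed alone. This says little about genes under 1 FPKM. The other pseudocounts kept the minimum, and the counts without it kept the added 1, which shrinks weak differences. Without the minimum, Bgn (log2 ratio -0.65) was past 1.5-fold. Of 55 alternative list medians 2 moved beyond the counting error of a typical list gene, both without a filter on the mean: the cadherin partners went to 0.055 and the myoepithelial markers to -0.0060. The medians of 2 lists near 0, the other factors linked to the transition and the cofactors, changed sign with a minimum of 5 FPKM (to -0.0071 and 0.0094), the first also after rescaling (to -0.0020). The gap between Cdh1 and Cdh2 was 7.50 with PBS and 7.65 with oxalate on the log2(FPKM + 1) scale, and became 10.39 and 10.96 with a pseudocount of 0.1, and 12.16 and 17.60 with 0.001, since Cdh2 was at or near 0. The gap between the epithelial and mesenchymal lists became 3.78 with PBS and 3.99 with oxalate at a pseudocount of 0.1, 5.19 and 5.45 at 0.001, and 4.69 and 5.19 as a difference of medians. The 0 mesenchymal genes lowered 2-fold became 5 among genes with a mean FPKM from 0.1 to 1 at a pseudocount of 0.001, a setting added with the values in view. Depth limits Snai2, Cdh2, Twist2 and Zeb1, the lowest of the 10 genes.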

Other observations

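Some mesenchymal genes of low level were lower with oxalate. In all, 10 members of the list had a mean FPKM from 0.1 to 1, a range that was chosen after the values were seen, and 5 of them were at least 2-fold lower with oxalate at a pseudocount of 0.001 and none was 2-fold higher. Of all 1599 genes in this range 10.7% were 2-fold lower and 10% were 2-fold higher, so that none of 10 genes being higher was near the share over all genes. The range leaves out Fbn1 of the same list, which encodes the matrix protein fibrillin-1 and lay in the opposite direction, with 0.03 FPKM in the PBS library and 0.07 FPKM in the oxalate library (19 and 28 estimated reads, counting interval of the log2 ratio 0.30 to 2.12). Bgn, which encodes the matrix proteoglycan biglycan, measured 1.16 FPKM in the PBS library and 0.38 FPKM in the oxalate library, from an estimated 131 and 28 reads. Col1a2, the second chain of type I collagen, was at 0.88 and 0.33 FPKM, and the counting interval of its log2 ratio ran from -1.99 to -0.91. Mmp2, a matrix protease of stromal cells, was at 0.59 and 0.12 FPKM (63 and 8 estimated reads). Col6a1, a chain of type VI collagen, was at 0.65 and 0.27 FPKM, and Acta2, the actin of smooth muscle and myofibroblasts, at 0.35 and 0.17 FPKM, the latter with an interval of the log2 ratio from -2.27 to 0.12. The other 5 genes of the range stayed under 2-fold: Fstl1 was at 0.51 and 0.35 FPKM, Col3a1 at 0.75 and 0.6, Dcn at 0.31 and 0.33, Tgfbi at 0.18 and 0.23 and Lox at 0.11 and 0.14. Col1a1, whose chain pairs with that of Col1a2, was at 143.48 and 144.61 FPKM (log2 ratio 0.011). Each value rests on 1 library per condition.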
